A study of Mus musculus with 14 samples.

Results

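CRTC2, p65 and H3AcK27 ChIP-seq peaks were examined at 9 mouse genes that encode the regulators of the CREB/CRTC pathway. The genes were taken by name from 21853 protein-coding genes and comprised the kinases Sik1, Sik2 and Sik3, the coactivators Crtc1, Crtc2 and Crtc3, and the transcription factors Creb1, Crem and Atf1. Every listed peak in a gene body or within 50 kb of it was kept, and a promoter peak was one that touched the 1000 bp before a start site or the 100 bp after it. The 3T3-L1 line is a clonal mouse fibroblast line that can be differentiated into adipocytes, and the cells used here had been differentiated for 4 days. They were left untreated (control) or exposed for 1 h to 10 µM forskolin (FSK), which activates adenylyl cyclase, to the cytokine TNFα, or to FSK and TNFα together. Each antibody was used once under each of the 4 treatments, so that 12 libraries were compared with 1 library per group, and differences carry counting error only. Intervals are exact 95% Poisson intervals on the tags under a peak. They do not cover variation between cultures, repeated tags are not independent molecules, and a peak that is not listed lies under the calling threshold and may still be occupied.

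Salt-inducible kinases phosphorylate the CRTC coactivators, which are then held in the cytoplasm by 14-3-3 proteins. A rise in cAMP activates protein kinase A, which inhibits the SIKs and phosphorylates CREB, so that dephosphorylated CRTCs enter the nucleus and bind CREB over cAMP response elements (CREs) of target genes. Sik1 and Crem are textbook CREB targets, and the short repressor ICER is made from an internal promoter of Crem.

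Sequences are shown for the promoters of Sik3, Sik2, Atf1 and Crtc1 and for a Creb1 peak, to set CRE letters beside CRTC2 peaks. Promoters of 6 of the 9 genes were matched in the RefSeq table (GRCm38.p6), which runs from 250 bases before to 50 after a start site; Sik1, Crtc2 and Crem were not matched. The CRE core TGACG, which a full CRE holds on both strands, is in capitals in either orientation. The first 3 sequences hold 3, 2 and 1 cores, the Creb1 sequence is the CRTC2 peak listed with FSK and holds 3, and the Crtc1 promoter holds none. The matched promoters of Creb1 and Crtc3, not shown, hold none either.
Sik3 promoter, chr9:46012570-46012869, plus strand: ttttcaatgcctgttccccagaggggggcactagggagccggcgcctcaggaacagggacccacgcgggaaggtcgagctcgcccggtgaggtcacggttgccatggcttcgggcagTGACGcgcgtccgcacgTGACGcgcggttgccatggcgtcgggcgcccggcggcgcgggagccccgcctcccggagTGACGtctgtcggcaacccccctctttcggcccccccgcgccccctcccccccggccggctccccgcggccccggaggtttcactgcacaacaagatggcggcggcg
Sik2 promoter, chr9:51009024-51009323, minus strand: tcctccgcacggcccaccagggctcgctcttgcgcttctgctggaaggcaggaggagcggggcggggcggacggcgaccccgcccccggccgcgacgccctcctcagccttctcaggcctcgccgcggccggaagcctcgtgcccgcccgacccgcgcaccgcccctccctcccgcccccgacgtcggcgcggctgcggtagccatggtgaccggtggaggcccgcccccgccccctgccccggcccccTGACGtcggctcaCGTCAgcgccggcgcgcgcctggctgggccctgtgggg
Atf1 promoter, chr15:100227609-100227908, plus strand: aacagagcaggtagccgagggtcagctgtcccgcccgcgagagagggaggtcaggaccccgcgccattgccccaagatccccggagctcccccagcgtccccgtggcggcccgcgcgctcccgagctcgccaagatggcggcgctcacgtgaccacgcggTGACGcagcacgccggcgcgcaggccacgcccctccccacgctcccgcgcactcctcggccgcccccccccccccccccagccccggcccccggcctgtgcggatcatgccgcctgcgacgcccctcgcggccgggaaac
Creb1 peak, chr1:64532868-64533028, plus strand: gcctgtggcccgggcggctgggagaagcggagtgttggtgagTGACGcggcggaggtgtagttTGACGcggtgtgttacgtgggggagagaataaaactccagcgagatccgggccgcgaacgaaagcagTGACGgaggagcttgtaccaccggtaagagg
Crtc1 promoter, chr8:70439524-70439823, minus strand: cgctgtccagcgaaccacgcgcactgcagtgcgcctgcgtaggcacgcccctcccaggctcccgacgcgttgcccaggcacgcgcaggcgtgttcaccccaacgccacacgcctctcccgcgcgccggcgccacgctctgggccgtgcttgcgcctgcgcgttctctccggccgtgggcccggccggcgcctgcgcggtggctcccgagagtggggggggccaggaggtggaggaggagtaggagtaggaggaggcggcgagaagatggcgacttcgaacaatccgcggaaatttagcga

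Libraries held 16438040 to 31807394 tags for CRTC2, 20490261 to 26904732 for p65 and 9832884 to 27966129 for H3AcK27. The lists held 5188 to 19527, 214 to 4221 and 38684 to 52321 peaks. The TNFα library had the longest CRTC2 list, and the FSK library was the shallowest for H3AcK27. In control cells an H3AcK27 region lay over a promoter of 4 of 10 adipocyte markers (Fabp4, Pparg, Lpl and Lipe, and not Adipoq, Plin1, Cebpa, Cd36, Slc2a4 or Cidec), 5 of 5 preadipocyte markers, 1 of 5 macrophage markers and 1 of 4 endothelial markers. Several markers that define adipocytes were thus without a promoter region in cells labelled as adipocytes, and the part of this in the results was not tested.

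CRTC2 was listed at the promoters of few of the 9 genes in control cells and of nearly all of them after each treatment. In control cells 3 of the 9 genes (Crtc2, Creb1 and Crem) had a promoter peak, against 11.8% of all protein-coding genes. With FSK the number was 8, against 27.4%, and Crtc3 was the exception. With TNFα it was 9, against 39.9%. With FSK and TNFα it was 8, against 29.1%, and Crtc1 was the exception. An H3AcK27 promoter region was present for all 9 genes in all 4 libraries, against 51.7%, 47.0%, 51.4% and 49.1% of genes in control, FSK, TNFα and FSK with TNFα. Among the 11293 genes with such a region in control cells, the CRTC2 shares were 22.7%, 52.7%, 76.3% and 55.8% in the same order. Against these shares the 9 of 9 with TNFα and the 3 of 9 in control cells stood out least.

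Promoter peaks that control cells lacked were found at 5 genes with FSK (17.7% of all genes), 6 with TNFα (28.5%) and 5 with both agents (19.6%). A promoter peak was present after all 3 treatments at 7 of the 9 genes (20.8% of all genes), namely the 3 Sik genes, Crtc2 and the 3 transcription factor genes. The TNFα list was the longest, and with CRTC2 lists of equal length the number of genes with a promoter peak was 3, 8, 5 and 7 in control, FSK, TNFα and FSK with TNFα. The shares of all genes were then 11.8%, 16.9%, 21.6% and 15.9%. The peaks lost with TNFα in that comparison were those of Sik1, Sik3, Crtc1 and Crem. For these patterns, shares among genes with an H3AcK27 promoter region, as all 9 had, were not counted.

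**Figure D1:**
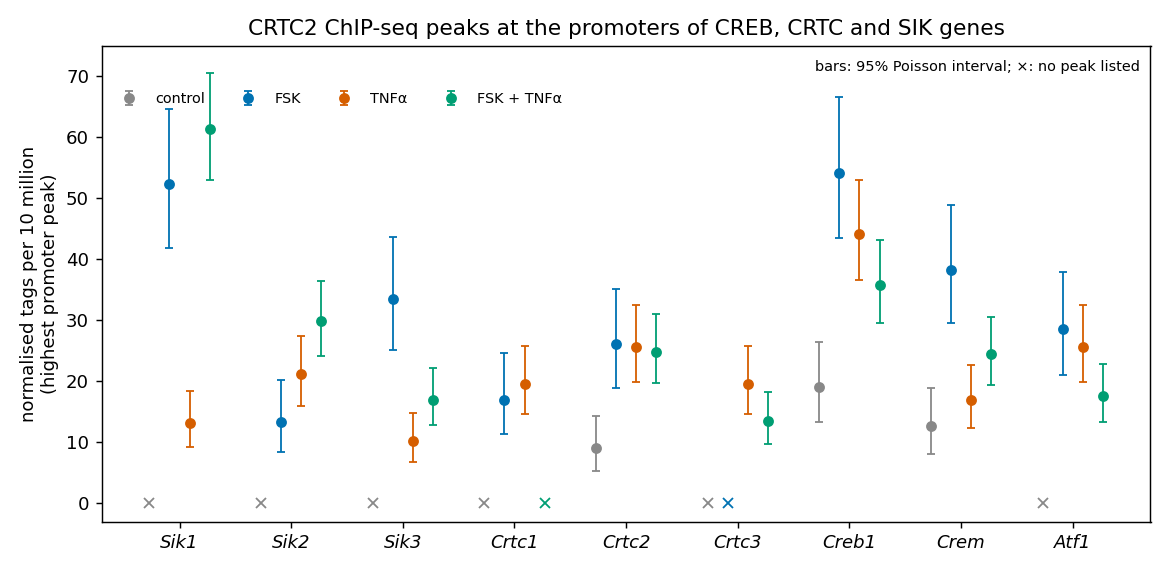
Normalised tags per 10000000 library tags of the highest CRTC2 promoter peak of each gene in each treatment, 1 library per point, with 95% Poisson intervals; a cross marks a library without a listed peak. Sik1 stands at 52.3 with FSK and 61.3 with both agents and at 13.2 with TNFα alone, whereas Crtc2 lies between 24.8 and 26.2 in the 3 treated libraries.

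Sik1 (ENSMUSG00000024042, GRCm38 chr17:31844250-31855804, minus strand) is a kinase gene that lay alone in its window. Its promoter peak held 52.3 normalised tags per 10000000 library tags with FSK (interval 41.8 to 64.6), 13.2 with TNFα (9.21 to 18.4) and 61.3 with both (53.0 to 70.5), and no peak was listed in control cells. The FSK libraries were thus both above the TNFα library, and their intervals overlapped each other. Among genes with a CRTC2 promoter peak in the same library these levels were at percentiles 97.9, 26.6 and 99.1.

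The peaks with FSK and with both agents overlapped, with midpoints 161 and 174 bp upstream of the start site. The TNFα peak was separate and was centred 125 bp downstream, in an exon. The FSK peak held every CRE match of the Sik1 promoter. A full CRE, TGACGTCA, began 239 bp upstream of the start site, and further TGACG cores began at 191, 113 and 102 bp. Only 3.14% of all genes carried a full CRE in the 1100 bp around their most upstream start site.

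Away from the promoter, 1 CRTC2 locus 18.2 kb upstream of Sik1 was listed after all 3 treatments. It held 23.1 normalised tags with FSK, 9.07 with TNFα and 35.8 with both. This followed the order of the promoter, with TNFα lowest. Of 13 CRTC2 loci in the Sik1 window, 10 were listed in 1 library each.

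Sik1 was the gene with most p65 peaks, with 4 in each TNFα-treated library and none in the others. A group of 3 loci between 24.5 and 28.4 kb downstream of the start site, beyond the 3′ end of the gene, was listed in both TNFα-treated libraries. The locus at 27.4 kb held 36.4 normalised tags with TNFα (29.6 to 44.4) and ranked 33 of 2404 p65 peaks, and it held 23.9 with both agents. The locus at 28.4 kb held 27.5 with TNFα and 22.0 with both.

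The third locus, at 24.5 kb, held 19.0 normalised p65 tags with TNFα and 23.9 with both agents. At the same position a CRTC2 peak of 11.0 tags was listed with FSK and in no library that held the p65 peak. It was the single place in the 9 windows where a CRTC2 peak of any treatment overlapped a p65 peak of any treatment. A p65 peak at the Sik1 promoter, 513 bp upstream, was listed with both agents only, at 12.7 tags and at the lowest score in that list.

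The H3AcK27 region over the Sik1 promoter was among the widest in each library. It spanned 34.0 kb with TNFα (13th widest of 49754 regions), 32.8 kb without treatment (19th of 52321), 18.0 kb with FSK (43rd of 38684) and 17.8 kb with both agents (85th of 42227). In the libraries with FSK the acetylated stretch was listed as several regions, and the p65 loci lay in these or in the single wide region of the other libraries. Over the whole window the listed regions covered 50.5 kb with TNFα, 49.9 kb without treatment, 45.0 kb with FSK and 49.8 kb with both agents.

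Sik2 (ENSMUSG00000037112, chr9:50892801-51009073, minus strand), the main SIK of adipocytes, had its lowest listed value with FSK and not, as Sik1, with TNFα. Its promoter peak held 13.4 normalised tags with FSK (8.39 to 20.3), 21.2 with TNFα (16.0 to 27.5) and 29.9 with both (24.2 to 36.5), with none listed in control cells. The library with both agents was highest, and its interval did not overlap that of FSK alone. The TNFα interval overlapped those of FSK and of both agents, so its place in the order was not resolved. The ratio of both agents to FSK was 2.23, at percentile 98.8 of the 4746 genes with a promoter peak in both libraries, whose median ratio was 0.957.

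The CRTC2 peaks of Sik2 lay over its second start site, 128 to 149 bp downstream of the first. The 2 cores shown above, which began 1 bp upstream and 12 bp downstream of the first start site, lay outside every listed CRTC2 peak, as did cores at 461, 716 and 753 bp. A C/EBP match, TTGCNNAA with N for any base, began 499 bp upstream, and 36.8% of all genes held such a match in a window of equal length. Of the 10 CRTC2 loci in the window 2 were nearer to a Sik2 start site than to that of another gene. The p65 lists held 1 Sik2 peak with FSK and 1 with both agents, both in the gene body, of 14.8 and 10.2 tags.

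Sik3 (ENSMUSG00000034135, chr9:46012820-46224194, plus strand) had its highest promoter peak with FSK. It held 33.5 normalised tags with FSK (25.2 to 43.6), 10.2 with TNFα (6.72 to 14.8) and 17.0 with both (12.8 to 22.2), with none listed in control cells. The FSK interval lay above both others. The TNFα peak had the lowest score of its list and was 4.37-fold over input, close to the threshold.

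Of the Sik3 cores shown above, those beginning 133 and 116 bp upstream lay in the CRTC2 peaks of all 3 treated libraries, and the one at 57 bp only in that of TNFα. The midpoints of these peaks were nearer to the start site of Pafah1b2, which faces Sik3, so the assignment to Sik3 is not unique. At least 4 cores within 1100 bp of the most upstream start site were found for 1.70% of all genes, and Sik1, Sik2 and Sik3 were each among them, where a full CRE counts as 2. Within the body of Sik3, 4 CRTC2 peaks of 6.92 to 14.8 tags were listed with both agents and in no other library. Its 7 p65 peaks were 1 with FSK, 1 with TNFα and 5 with both, and the latter were all at the lowest score of their list.

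Crtc1 (ENSMUSG00000003575, chr8:70382355-70439579, minus strand) encodes a coactivator known chiefly from the brain. Its promoter peak held 17.0 normalised tags with FSK (11.3 to 24.6) and 19.6 with TNFα (14.7 to 25.8), intervals that overlapped. None was listed in control cells or with both agents. These peaks lay 274 and 220 bp upstream of the start site in a promoter with no CRE core in 1100 bp, as its sequence above shows for the last 250 bases.

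Crtc2 (ENSMUSG00000027936, chr3:90254163-90264125, plus strand) encodes the protein that the antibody recognised. CRTC2 tags at its own promoter stood at 26.2 with FSK (18.9 to 35.2), 25.7 with TNFα (19.9 to 32.6), 24.8 with both agents (19.7 to 31.0) and 9.0 without treatment (5.24 to 14.4), all normalised. The 3 treated libraries did not differ beyond their counting error, and each lay above the control interval. The ratios to control of 2.91, 2.86 and 2.76 compare with medians of 1.60, 2.22 and 1.53 over the 2116, 2495 and 2079 genes that had a promoter peak in both libraries. No CRE core was found in 1100 bp of this promoter. The window holds 8 other genes, and 1 of its 17 CRTC2 loci was nearest to the Crtc2 start site.

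Crtc3 (ENSMUSG00000030527, chr7:80586627-80688877, minus strand) was the member with fewest CRTC2 peaks. Its promoter held 19.6 normalised tags with TNFα (14.7 to 25.8) and 13.5 with both agents (9.78 to 18.2), and none was listed in control cells or with FSK. The TNFα peak was centred 209 bp upstream and the other 61 bp downstream, so that they did not overlap. Its single core, 417 bp upstream, lay in neither.

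Creb1 (ENSMUSG00000025958, chr1:64532645-64604548, plus strand) encodes CREB itself and had the highest CRTC2 promoter level of the 9 genes in control cells, with FSK and with TNFα. The level was 54.1 normalised tags with FSK (43.5 to 66.6), 44.2 with TNFα (36.6 to 53.0), 35.8 with both (29.6 to 43.1) and 19.1 without treatment (13.4 to 26.4). Its interval overlapped that of Sik1 with FSK, and those of Crtc2 and Crem in control cells. Only with TNFα did its interval lie above those of all other members. Control was lowest, and the interval with both agents ended just below that of FSK alone. By score it ranked 145 of 11749 peaks in the FSK library.

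All 4 peaks of Creb1 lay 243 to 303 bp downstream of its most upstream start site, over a later one, and none counted when only the most upstream site was used. Each held the cores that began 265 and 286 bp downstream, which are the first 2 in capitals in the peak sequence above. The promoter sequence before them held no core nearer than 196 bp upstream. Over the 12 lists, the genes with promoter levels most like those of Creb1 were Efnb2, Sf3b1, Ndel1, Clk1 and Appbp2, at distances of 0.643 to 0.858 (Euclidean, over log2 of normalised tags + 1). For Efnb2 the CRTC2 levels were 16.9, 55.4, 45.7 and 35.5 in control, FSK, TNFα and both.

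Atf1 (ENSMUSG00000023027, chr15:100227819-100261244, plus strand), a close relative of Creb1, had no promoter peak listed in control cells. Its highest promoter peak held 28.6 normalised tags with FSK (21.0 to 38.0), 25.7 with TNFα (19.9 to 32.6) and 17.6 with both (13.3 to 22.9). All 3 intervals overlapped. Several peaks stood side by side, 3 with FSK, 3 with TNFα and 2 with both, from 693 bp upstream to 594 bp downstream of the most upstream start site. The core in capitals above, 50 bp upstream, lay between them and in none.

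**Figure D2:**
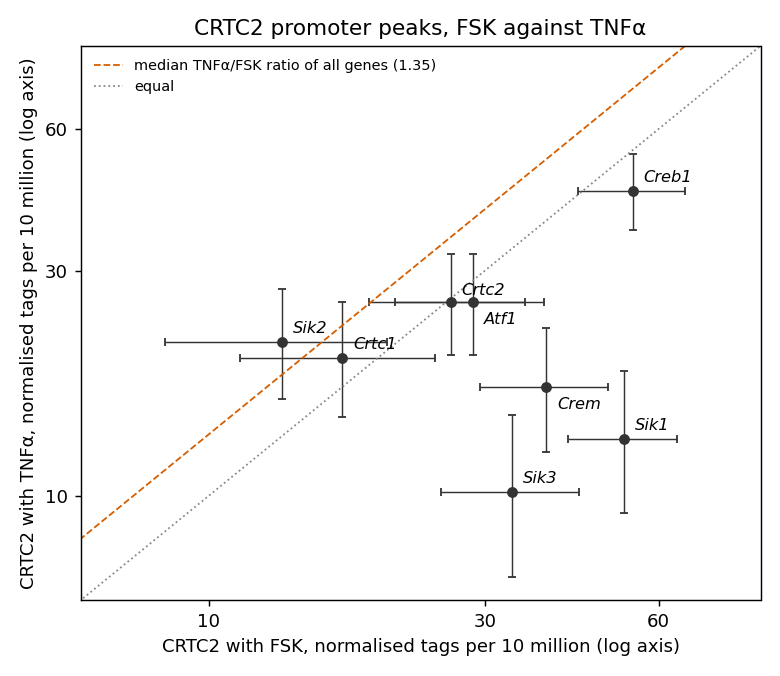
CRTC2 tags of the highest promoter peak with TNFα against FSK, per 10000000 library tags and on log axes, for the 8 genes listed in both libraries, with 95% Poisson intervals. Sik1, Sik3 and Crem fall well below the dashed line at the median ratio of all genes (1.35), and Sik2 (1.58) lies near it.

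The genes fell unevenly when FSK and TNFα were set side by side. The ratio of TNFα to FSK had a median of 1.35 over 5601 genes with a promoter peak in both libraries. It was 0.252 for Sik1 (percentile 0.107), 0.304 for Sik3 (0.161) and 0.444 for Crem (1.000). It was 0.817 for Creb1, 0.899 for Atf1, 0.981 for Crtc2, 1.15 for Crtc1 and 1.58 for Sik2, at percentiles between 12.3 and 64.8. For Sik1, Crem and Atf1 the peaks of the 2 libraries lay at different positions in the promoter. At the position where Atf1 was listed in both, it held 28.6 tags with FSK and 22.3 with TNFα.

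When FSK was present beside TNFα, the ratio to TNFα alone was 4.64 for Sik1, 1.67 for Sik3, 1.44 for Crem and 1.41 for Sik2, against a median of 0.696 over 5919 genes. For Crtc2, Creb1, Crtc3 and Atf1 it was 0.965, 0.810, 0.689 and 0.685. For Sik1, Crem, Crtc3 and Atf1 the highest peaks of these libraries did not overlap, and at the position listed in both Atf1 held 22.3 tags with TNFα and 17.6 with both agents. This comparison and the previous one share the TNFα library. The ratio of both agents to FSK alone was 1.17 for Sik1, 0.507 for Sik3, 0.640 for Crem, 0.615 for Atf1 and 0.662 for Creb1, against a median of 0.957.

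Crem (ENSMUSG00000063889, chr18:3266048-3337748, minus strand) encodes both activator and repressor forms through 21 annotated start sites. Around its most upstream start sites the CRTC2 peak held 38.3 normalised tags with FSK (29.5 to 49.0), 24.5 with both agents (19.4 to 30.6), 17.0 with TNFα (12.4 to 22.7) and 12.7 without treatment (8.14 to 18.9). The peaks of control and TNFα overlapped each other, 138 and 148 bp upstream of the most upstream start site. Those of FSK and of both agents overlapped each other, 257 and 138 bp downstream, and did not meet the first pair.

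The internal promoter of Crem, 56.6 kb downstream, was listed for CRTC2 only with FSK, at 27.4 tags (20.0 to 36.6), and with both agents, at 18.5 (14.1 to 23.9). A neighbouring peak of 18.2 tags was listed with both agents. A further locus, 502 bp downstream of the nearest start site and outside the promoter limits, was listed at 9.73 and 10.1 tags in the same libraries. The 3 full CREs of Crem all lay in these promoter peaks, and Crem and Sik1 were the 2 of 9 members with a full CRE (3.99% of all genes over all start sites). No p65 peak was listed in the Crem window under any treatment.

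H3AcK27 at Crem followed the same split. The region over the most upstream start sites held 737.3 normalised tags over 4909 bp with FSK (150 per kb) and 669.7 over 5168 bp with both agents (130 per kb), against 296.1 over 3131 bp with TNFα (94.6 per kb) and 275.7 over 3222 bp without treatment (85.6 per kb). The libraries with FSK were higher in tags, width and tags per kb. At the internal promoter a region of 29.7 tags and 1291 bp in control cells compared with 233.9 tags and 3907 bp with FSK and 160.1 tags and 3910 bp with both. With TNFα a region of 9.65 tags and 500 bp was listed 57.4 kb downstream, beside the promoter and not over it.

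**Figure D3:**
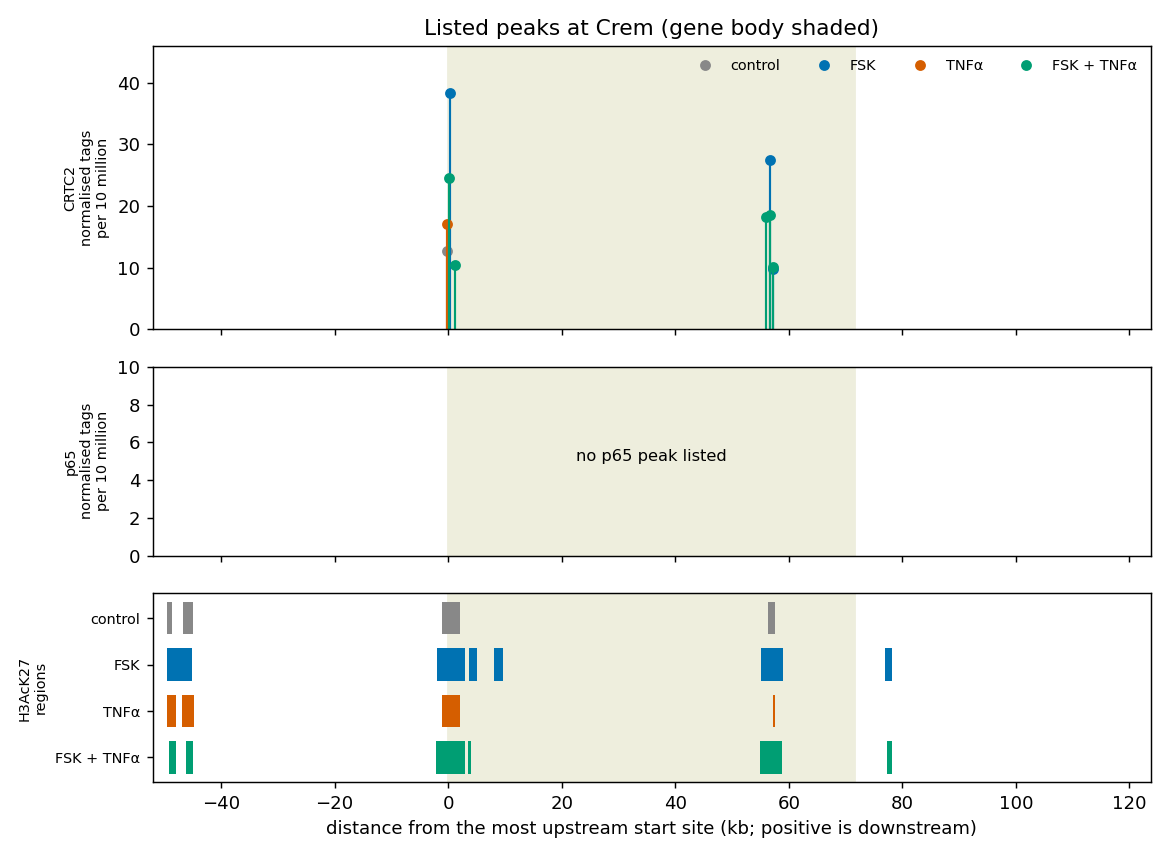
Listed peaks around Crem by distance from its most upstream start site in kb, with normalised tags per 10000000 library tags for CRTC2 (top), the empty p65 panel (middle) and H3AcK27 regions (bottom). CRTC2 stems at the internal promoter, 56.6 kb downstream, are those of FSK (27.4) and of both agents, and the H3AcK27 bars there are longest in the same libraries.

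Across the other members, H3AcK27 per kb of promoter region stayed between 0.810 and 1.37 times control. A level of at least 1.5 times control was reached by 1 of 9 genes with FSK (8.13% of all genes), 0 with TNFα (3.92%) and 1 with both agents (10.1%), and the gene was Crem each time, at 1.76 and 1.51 times control. The median ratios over all genes were 1.05, 1.07 and 1.08. The ratios of the other 8 members ranged from 0.810 (Sik2) to 1.26 (Sik1) with FSK and from 0.948 (Crtc3) to 1.36 (Sik1) with both. With TNFα the highest was Crtc2, at 1.37 times control, and the lowest Sik3, at 0.953. Region widths differed between libraries, and normalised tags over whole regions moved both ways. Crtc2 held 265.6 in control cells, 427.3 with TNFα and 465.6 with both agents. Sik2 held 152.5 over 2594 bp in control cells and 199.3 over 4186 bp with FSK. With FSK Creb1 rose from 416.6 to 573.6, while Atf1 fell from 935.5 to 788.2 and Crtc3 from 236.9 to 180.0. Atf1 had the densest regions in every library, 176 to 197 normalised tags per kb.

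**Figure D4:**
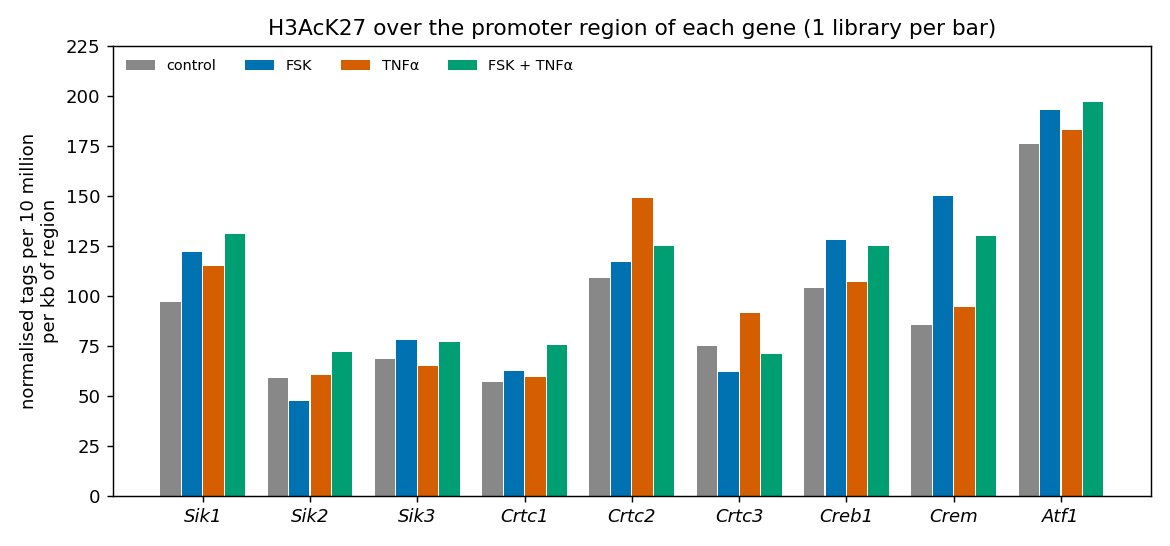
H3AcK27 over the promoter region of each gene, in normalised tags per 10000000 library tags and per kb of region, 1 library per bar and without error bars. Crem stands at 150 with FSK and 130 with both agents against 85.6 in control cells, and Atf1 is densest in each library.

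In the windows as a whole, the 1586 kb held 15, 36, 42 and 38 CRTC2 peaks in the control, FSK, TNFα and combined libraries. This gave 0.946, 2.27, 2.65 and 2.40 peaks per 100 kb, against 0.269, 0.647, 1.09 and 0.769 over the windows of all genes. At least 1 peak was present in the window of 6, 8, 9 and 9 members, against 39.2%, 60.4%, 70.3% and 64.5% of all genes. These counts depend on window length, which differs between genes. Peaks were unevenly spread, and the gene-dense window of Crtc2 alone held 7, 10, 12 and 7. H3AcK27 regions were denser in the member windows too, at 6.50, 5.99, 6.50 and 6.56 per 100 kb. Over the windows of all genes they stood at 2.68, 2.01, 2.55 and 2.21. The part of this in the CRTC2 densities was not tested.

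Merged across treatments, the CRTC2 peaks formed 77 loci, of which 15 were listed in control cells. A single library listed 46 loci, with a median of 9.63 normalised tags, and 16 were listed in 3 or 4 libraries, with a median of 21.7. By treatment, 17 loci stood in the TNFα list alone, 15 in that of both agents, 10 in that of FSK and 4 in that of control. Another 8 were shared by the 3 treated libraries and 7 by all 4. The midpoints lay at promoters of the members for 15 loci, in their introns for 15, in their exons for 3 and outside them for 44.

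An H3AcK27 region of the same treatment covered 12 of the 15 control loci, 32 of the 36 FSK loci, 35 of the 42 TNFα loci and 34 of the 38 loci of both agents, while 59.6%, 84.1%, 74.5% and 82.6% of all CRTC2 peaks in these lists were covered. A CRE core within 200 bp centred on the locus was found in 17 of 77 loci (22.1%, against 17.1% of all 33768 CRTC2 loci), and a full CRE in 4 (5.19%, against 1.53%). At the 15 promoter loci these numbers were 7 and 3, and the shares over the promoter loci of all genes were not counted. The AP1 letters TGACTCA were found in 10 loci (13.0%, against 10.4%), the C/EBP letters in 2 (2.60%, against 9.93%) and the NF-κB letters GGANTTTCC in 2 (2.60%, against 1.32%).

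For p65 the numbers of peaks in the windows were 0, 4, 6 and 13 for control, FSK, TNFα and both agents. The members with at least 1 peak numbered 0, 4, 3 and 5, against 1.91%, 16.9%, 14.9% and 22.3% of all genes. At promoters the numbers were 0, 0, 0 and 1, against 0.0915%, 0.586%, 0.627% and 1.01%. Sik1 accounted for 8 of the 23 peaks and for all 3 loci that were listed in more than 1 library. Of the other 15 peaks, 9 had the lowest score of their list and 4 lay in an H3AcK27 region of the same treatment. No CRTC2 and p65 peaks of the same treatment overlapped in any window. Some lay close at Sik1 with both agents, with midpoints 339 bp apart at the promoter. The p65 loci 28.4 and 27.4 kb downstream were then 382 and 544 bp from a CRTC2 peak of 9.12 tags, at the lowest score of its list. With TNFα alone these loci were 7474 and 6499 bp from the nearest CRTC2 peak.

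Among 32 other genes of the pathway (subunits of protein kinase A and calcineurin, adenylyl cyclases, 14-3-3 proteins, class IIa histone deacetylases, Stk11, Crebbp and Ep300), a CRTC2 promoter peak was present for 8, 14, 20 and 14 in control, FSK, TNFα and both, or 25.0%, 43.8%, 62.5% and 43.8%. The shares of all genes were 11.8%, 27.4%, 39.9% and 29.1% in the same order. Among all genes with an H3AcK27 promoter region in control cells they were 22.7%, 52.7%, 76.3% and 55.8%. Such a region was present for 24 of the 32. The CRTC2 shares among those 24 were not counted, so these figures are not like for like. For 5 of the 32 (15.6%) a CRTC2 promoter peak was listed in the 3 treated libraries and not in control cells. This pattern was not counted over all genes. Ywhaz, a 14-3-3 protein, held 40.8, 29.5 and 28.3 normalised tags with FSK, TNFα and both. Prkaca, the main catalytic subunit of protein kinase A, held 15.8, 8.31 and 8.17, and Prkacb held 11.0 in each. Hdac5 and Ywhah made up the rest. A p65 promoter peak was listed for 1 of the 32, with TNFα (3.12%, against 0.627% of all genes).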

How the data were processed

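Peak lists of 12 ChIP libraries were used, 1 per antibody and treatment, grouped by their labels. According to the submitters' processing notes STAR, HOMER and mm10 were used; versions are not given in the sources used here. The authors called peaks per library against an untreated input (control, TNFα) or an FSK input. The deposited signal is the tag number of a peak scaled to 10000000 tags; the deposited score counts tags at most once per position for CRTC2 and p65; the deposited fold is the ratio to input, and every listed peak was at 4 or more. Tags for exact Poisson intervals were recovered from the signal and the library total, because the deposited tag column is scaled in several libraries.

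Genes and start sites were those of protein-coding transcripts in GENCODE M21. All 243428 peaks on assembled chromosomes ended within GRCm38. Peaks overlapping by at least 1 bp were joined. Motifs were matched exactly on both strands of RefSeq GRCm38.p6. The named genes were the 9 members, up to 6 of 32 pathway genes by score with FSK, and the 5 genes nearest to the member with the highest FSK score. The members, lists and thresholds were chosen with earlier results of these data known. No test between groups was possible. Alternatives covered threshold, list length, overlap, promoter, start site, window and motif width. Overlap code was tested on simulated data and placed 200 of 200 peaks correctly. Software was matplotlib 3.10.9, numpy 2.4.6, pandas 2.3.3, pysam 0.24.0, Python 3.11.15, samtools 1.23.1 and scipy 1.17.1.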

Additional observations from a re-analysis of the deposited data

Results flagged for a closer look

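By the listed peaks, with an unlisted one set to 0, 3 promoters had more CRTC2 with TNFα than in control cells. They had less with FSK and TNFα than with FSK alone. Only at Creb1 were both differences between listed peaks with separate Poisson intervals. With 1 library per treatment the difference was not tested. An unlisted peak was compared by the lowest level anywhere in its list. Listing also needed 4-fold over input, so such a peak may hold more tags than that level. Differences that use one are not measured at both ends and are not resolved. At Sik3, unlisted in control cells, the differences were 10.2 and -16.5 normalised tags per 10000000 library tags, and the second minus the first was -26.7. At Crtc1, unlisted in control cells and with both agents, they were 19.6 and -17.0 (-36.6). At Creb1, listed in all 4 libraries, they were 25.1 and -18.3 (-43.4). The ratio of TNFα to control at Creb1 was 2.31, close to the median of 2.22 over 2495 genes (percentile 53.5). Its ratio of both agents to FSK alone was 0.662, against a median of 0.957 (percentile 15.7).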

How the results depend on the processing

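Of 231 counts under other settings 176 stayed within 1.5 times the value reported, and the level of the highest CRTC2 promoter peak stayed inside its interval in all 123 cases where a peak was still listed; in 17 it was not. Fold over input of at least 8 removed 6 of these, among them Crtc2 in 3 libraries. With only the most upstream start site 5 were lost, 4 of them Creb1. Lists of equal length removed 5 and the midpoint rule 1. In the counts below the libraries follow the order control, FSK, TNFα and both agents. With equal lists, promoter counts fell to 5 for CRTC2 with TNFα (21.6% of all genes) and 0 for p65 with both (0.682%). Window peaks fell to 22, 21 and 19 for treated CRTC2 and 8 for p65 with both. Loci then numbered 39, 17 of them in 1 library and 8 in all 3 treated libraries. With the midpoint rule H3AcK27 promoter counts were 2, 4, 1 and 4, since wide regions are centred elsewhere. The shares of all genes were then 23.4%, 21.9%, 22.2% and 21.3%. At 8-fold, CRTC2 window peaks were 7, 16 and 22 (control, FSK, both), H3AcK27 peaks 44, 32, 47 and 28, loci in control cells 7 and loci in all 3 treated libraries 4. Within 10 kb, CRTC2 peaks were 7, 19, 22 and 23, H3AcK27 peaks 62, 60, 62 and 60, p65 peaks 1 with TNFα (in 1 member) and 8 with both, and loci 44, with 7 in control cells, 28 in 1 library and 8 in all 3 treated ones. With peaks nearest to a member's start site, CRTC2 peaks were 5, 16, 17 and 23, H3AcK27 peaks 61, 59, 59 and 62, p65 peaks 1 with FSK (1 member), and loci 40, with 5, 27 and 6 in the same classes. In 100 bp, 3 loci held AP1 letters and 0 C/EBP letters. In 1 window of equal length per gene, a setting added after the data were seen, 1 member held a full CRE and 1 the AP1 letters. No count of co-listed CRTC2 and p65 peaks differed from 0 in the settings run. No paired analysis was possible because each group has 1 library, and no library could be left out. The depth of 9832884 tags limits H3AcK27 with FSK, and shallow lists miss weak peaks.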
